A study of Arabidopsis thaliana with 18 samples.

Results

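The plasma membrane intrinsic proteins (PIPs) are the aquaporins of the plant cell surface. The 10 PIP genes described here were taken by gene identifier from the deposited table of 33039 Arabidopsis genes: PIP1;1 (AT3G61430), PIP1;2 (AT2G45960), PIP1;3 (AT1G01620), PIP1;4 (AT4G00430), PIP1;5 (AT4G23400), PIP2;1 (AT3G53420), PIP2;2 (AT2G37170), PIP2;3 (AT2G37180), PIP2;5 (AT3G54820), and PIP2;7 (AT4G35100). All 10 were present at 1 TPM (transcript abundance per length, scaled to the same total in every sample) or more in each of the 18 samples and belong to the 20044 genes tested. RNA sequencing was done on the aboveground parts of wild type Col-0 seedlings, which were inoculated with the root endophyte Serendipita indica (Si) or left without it as controls (CK). Seedlings of all 6 groups were first grown at 22°C on medium with 1.2% sucrose under a 12 h day, were 9 days old at inoculation, and were then kept for 7 days at 22, 25, or 28°C, with 3 biological replicates per group. No mutant or transgene enters any of these groups, and whole shoots were sampled, so a value is an average over all shoot cell types.

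Aquaporins are channel proteins that let water, and in some members hydrogen peroxide or carbon dioxide, cross a membrane. PIPs form tetramers in the plasma membrane and fall into the PIP1 and the PIP2 subfamily. PIP2 proteins are strong water channels when expressed alone, whereas many PIP1 proteins reach the plasma membrane only in tetramers with PIP2 partners, which is known from maize and from expression in frog oocytes. In leaves, PIPs carry water out of the veins and across the mesophyll, and their transcripts are known to change with water supply.

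Members of such a family can share reads, so the coding sequences were compared first. Identity over aligned coding positions ranged from 79.79 to 87.57% among the 5 PIP1 genes, from 73.04 to 94.76% among the 5 PIP2 genes, and from 71.03 to 76.26% between the subfamilies. The closest pair was PIP2;2 (TAIR10.1, chr2:15613368-15615022, minus strand) and PIP2;3 (chr2:15617635-15619155, plus strand), neighbouring genes on chromosome 2 with 813 of 858 coding positions in common. Their longest identical stretch covers coding positions 175 to 416 and includes the codons of the first Asn-Pro-Ala motif of the pore, and a read inside these 242 bases cannot be assigned to either gene from its sequence:
PIP2;2 and PIP2;3: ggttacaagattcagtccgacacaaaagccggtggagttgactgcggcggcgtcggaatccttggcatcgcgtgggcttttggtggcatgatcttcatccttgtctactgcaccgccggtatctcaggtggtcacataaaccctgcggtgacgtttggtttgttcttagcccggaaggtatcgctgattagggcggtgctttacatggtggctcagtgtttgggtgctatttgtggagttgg

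The 90 coding bases in which this pair differs most lie at positions 403 to 492 and hold 12 differences, shown in capitals:
PIP2;2: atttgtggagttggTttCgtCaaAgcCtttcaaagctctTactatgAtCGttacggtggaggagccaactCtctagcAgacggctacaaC
PIP2;3: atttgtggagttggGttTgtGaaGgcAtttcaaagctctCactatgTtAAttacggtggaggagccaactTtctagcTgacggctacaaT
The sequences and positions are those of the RefSeq annotation of TAIR10.1. The sources used here do not give the read length or how reads that match several genes were handled, so values of this pair are given singly and summed.

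PIP1;3 (chr1:225665-227543, minus strand) and PIP1;4 (chr4:185285-187680, minus strand) are shown because their values moved in opposite directions with Si. They shared 734 of 861 aligned coding positions (85.25%), and their longest common run in the transcripts was 35 bases. Their most different 90 coding bases, positions 322 to 411 of PIP1;3 and 325 to 414 of PIP1;4, hold 20 differences (capitals) and again the codons of the first Asn-Pro-Ala motif:
PIP1;3: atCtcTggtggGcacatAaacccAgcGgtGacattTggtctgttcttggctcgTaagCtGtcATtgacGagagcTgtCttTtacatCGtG
PIP1;4: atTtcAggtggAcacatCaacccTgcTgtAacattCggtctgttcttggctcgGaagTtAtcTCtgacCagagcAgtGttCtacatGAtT
No other annotated gene overlaps any of the 10 members.

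The samples carried leaf RNA, and the sum of 5 leaf markers lay below CK in every Si sample of the same temperature. It was 40878 to 44213 TPM in CK against 32585 to 34717 TPM in Si at 22°C, 33272 to 34973 against 27921 to 28436 TPM at 25°C, and 27416 to 28454 against 22447 to 23879 TPM at 28°C. By the test used for the PIP genes, 3 of the 5 fell at each temperature (LHCB1.3, LHCB2.1, and GAPA1) and 1 rose at 22°C. Of all genes tested, 10.7, 13.5, and 11.9% fell and 47.4, 47.8, and 43.5% rose at 22, 25, and 28°C. The highest value of any of 12 root markers was 6.73 TPM (CASP1) and CASP2 was listed at 0 in 17 of 18 samples. The summed root markers were higher in CK at 28°C (8.78 to 11.98 TPM) than in Si at 28°C (3.56 to 4.89 TPM). At 28°C the 4 guard cell markers together also lay at 84.72 to 90.66 TPM in CK and 54.86 to 64.69 TPM in Si, and 3 of the 4 were lower by the test. Of these 4, 1 was higher at 22°C, and 1 was higher and 1 lower at 25°C. The part of these markers in the PIP values was not tested, and in whole shoots fewer cells of a type and less RNA per cell cannot be told apart. TPM values are shares of a fixed total and keep no sequencing depth, so the precision of each value rests on the 3 replicates. Across the 20044 genes tested, the median log2 fold change of Si against CK was 0.26, 0.26, and 0.22 at 22, 25, and 28°C, and that of 28 against 22°C was 0.22 in CK and 0.19 in Si, so each PIP value is to be read relative to this shift. Rescaling the samples by median-of-ratios factors, which brings these medians to between 0 and 0.01, is given as a second reading of the counts. By it, 4, 4, and 5 of the 5 leaf markers fell at 22, 25, and 28°C and none rose. Of the 4 guard cell markers, 1 rose and 2 fell at 22°C, and 3 fell at 25 and at 28°C. Of all genes, 25.4, 27.4, and 24.0% fell and 24.6, 28.1, and 23.5% rose in this reading.

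Together the 10 PIP genes made up 2318 ± 102, 2634 ± 165, and 3228 ± 55.2 TPM (mean ± SD, n = 3) in CK at 22, 25, and 28°C, and 2021 ± 38.2, 2023 ± 66.9, and 2521 ± 85.2 TPM in Si. At each temperature every Si sample lay below every CK sample in this sum. PIP1;2 was the highest member in all 6 groups, held 25.2 to 32.9% of the sum, and ranked 161 of all genes by mean TPM. PIP2;1 and PIP2;7 followed in CK at each temperature, and the samples of these neighbours in the order overlapped at 22 and 25°C but not at 28°C. In Si, PIP2;7 came first of this pair at 22 and 25°C and second at 28°C, with overlapping samples at 25°C only. Samples of the fourth, PIP1;3, overlapped with those of PIP2;7 in CK at 22°C and with those of PIP2;1 in Si at 22°C. PIP2;3 was ninth and PIP2;5 last in every group, the latter with a rank of 15607 among all genes. The place of PIP1;4 changed with treatment, from eighth in all CK groups to sixth in all Si groups. Its Si samples overlapped with those of the seventh, PIP1;1, at 22 and 28°C and not at 25°C.

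**Figure D1:**
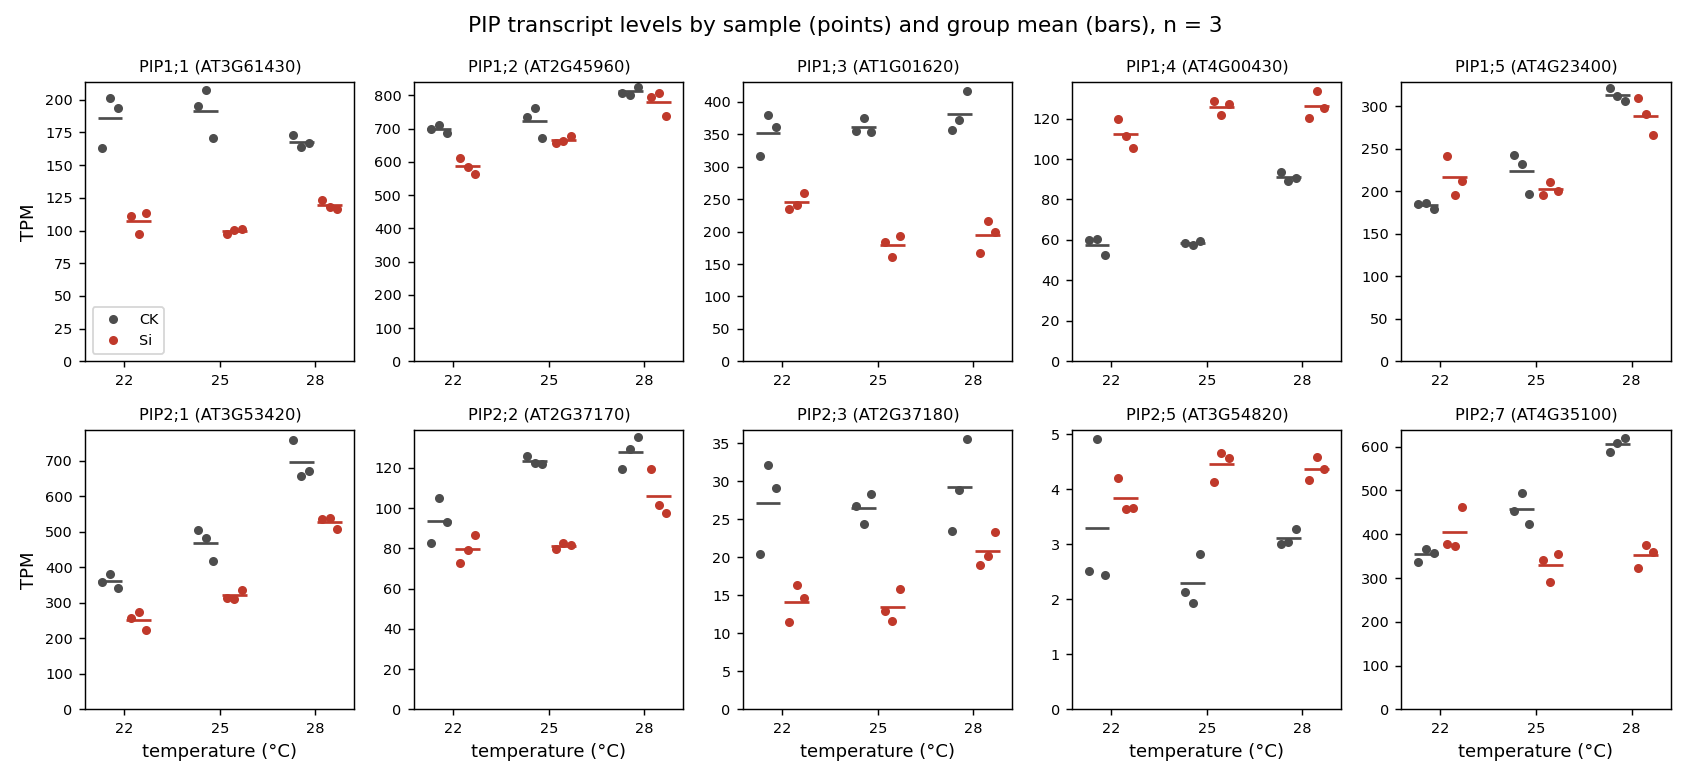
TPM of each of the 10 PIP genes (y axis, starting at 0, a separate scale for each gene) at 22, 25, and 28°C (x axis), with CK samples in grey, Si samples in red, and a bar at the mean of 3 replicates. PIP1;4 samples of Si lie above those of CK at each temperature, and PIP2;7 changes from higher in Si at 22°C to lower in Si at 25 and 28°C on the deposited scale (after median-of-ratios scaling its log2 fold change at 22°C is -0.11).

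The comparison of Si with CK at each temperature asks how the shoot transcriptome responds to a fungus that colonizes the roots. Most PIP members were lower in Si: 6 of 10 fell at each of 22, 25, and 28°C with an adjusted p of at most 0.05 (limma on log2(TPM + 1), Benjamini-Hochberg over all 20044 genes), where 10.7, 13.5, and 11.9% of all genes tested fell. Rises passed the same test for 2, 2, and 1 members, against 47.4, 47.8, and 43.5% of all genes. The median log2 fold change of the members was -0.24, -0.51, and -0.33, and 9, 8, and 8 of 10 lay below the median of all genes. Differentially expressed genes (DEGs), which also need an absolute log2 fold change above 1, were absent among the members at 22 and 28°C and numbered 1 lower (PIP1;3) and 1 higher (PIP1;4) at 25°C, against 9.33, 9.66, and 12.1% of all genes at 22, 28, and 25°C. Under median-of-ratios scaling all members called DEGs were lower in Si, namely 2 at 22°C (PIP1;1 and PIP2;3), 3 at 25°C (the same pair and PIP1;3), and 2 at 28°C (PIP1;3 and PIP2;7), against 7.43, 9.89, and 7.84% of all genes. By adjusted p after this scaling, the members that fell numbered 6, 8, and 8, beside 25.4, 27.4, and 24.0% of all genes, and those that rose 1, 2, and 1, beside 24.6, 28.1, and 23.5% of all genes. Fold changes on the log2(TPM + 1) scale understate changes of low genes.

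**Figure D2:**
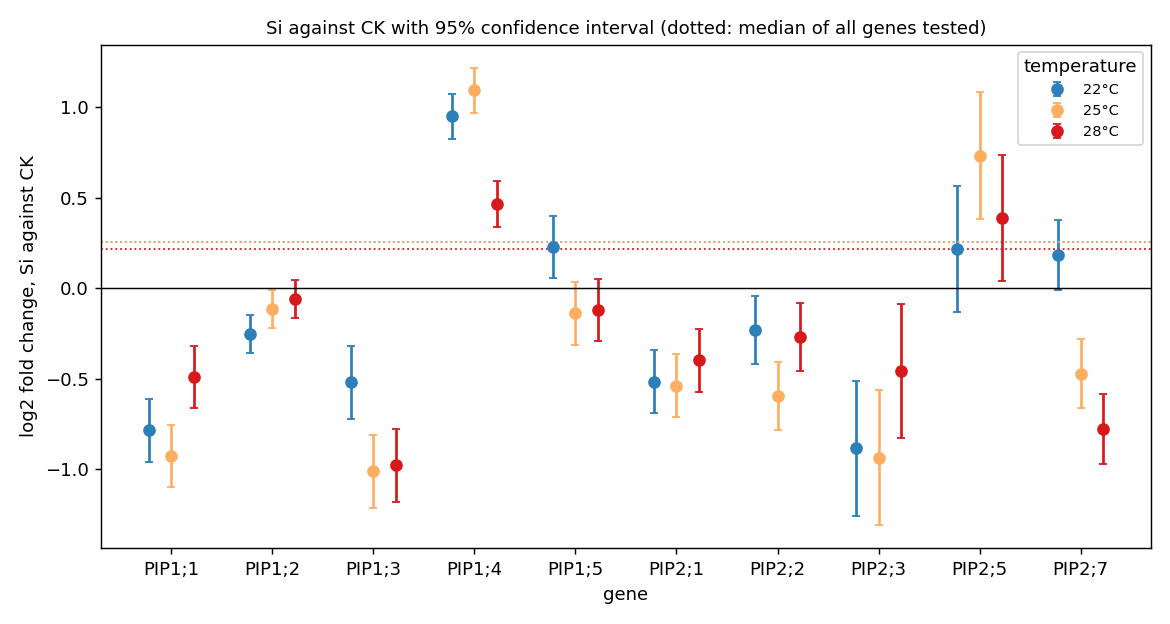
Log2 fold change of Si against CK on the log2(TPM + 1) scale (y axis) for the 10 PIP genes (x axis) at 22, 25, and 28°C (colours), each with its 95% confidence interval from limma. Dotted lines mark the medians of all genes tested, 0.26, 0.26, and 0.22. PIP1;4 reaches 0.95, 1.09, and 0.47, PIP1;3 lies at -0.52, -1.01, and -0.98, and PIP2;7 goes from 0.18 to -0.78, of which only the 0.18 changes sign (to -0.11) under median-of-ratios scaling.

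Whether the effect of Si differed between temperatures was tested with interaction terms, called on the adjusted p alone. At 25 relative to 22°C, no member was higher and 2 members were lower (PIP1;3 and PIP2;7), where 4.37 and 5.36% of all genes tested were called in these directions. At 28 relative to 22°C, none was higher and 4 were lower (the same pair with PIP1;4 and PIP1;5), against 6.92 and 10.2% of all genes. After median-of-ratios scaling, none was higher and 2 were lower at 25°C (4.45 and 5.56% of all genes), and at 28°C none was higher and 2 were lower (8.28 and 8.33% of all genes), as PIP1;3 and PIP1;5 no longer passed there. A fit of only the groups compared also left 2 at 28°C. The median interaction over the 10 members was -0.10 at 25°C and 0.04 at 28°C, and both sets of terms share the 6 samples at 22°C.

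Temperature alone was read by setting 25 and 28°C against 22°C in each treatment. In CK, 4 PIP members were higher and none was lower at 25°C, against 8.74 and 2.40% of all genes, and 6 were higher and none was lower at 28°C, against 41.2 and 7.81% of all genes. In Si, 2 were higher and 2 lower at 25°C, against 16.6 and 7.06% of all genes, and 6 were higher and 1 lower at 28°C, against 39.0 and 10.5% of all genes. The members had median log2 fold changes of 0.04 (25°C) and 0.33 (28°C) in CK, and in Si of -0.02 and 0.29. The only DEG among them in these 4 comparisons was PIP2;1 at 28°C in Si, where 0.569, 4.89, 2.16, and 6.64% of all genes were DEGs in CK at 25 and 28°C and in Si at 25 and 28°C. With median-of-ratios scaling no member passed in CK at 25°C (4.20% of all genes higher, 5.74% lower), 4 were higher and 1 lower in CK at 28°C (18.7 and 21.7%), none was higher and 2 lower in Si at 25°C (8.57 and 11.2%), and 2 were higher and 2 lower in Si at 28°C (18.9 and 20.2%).

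**Figure D3:**
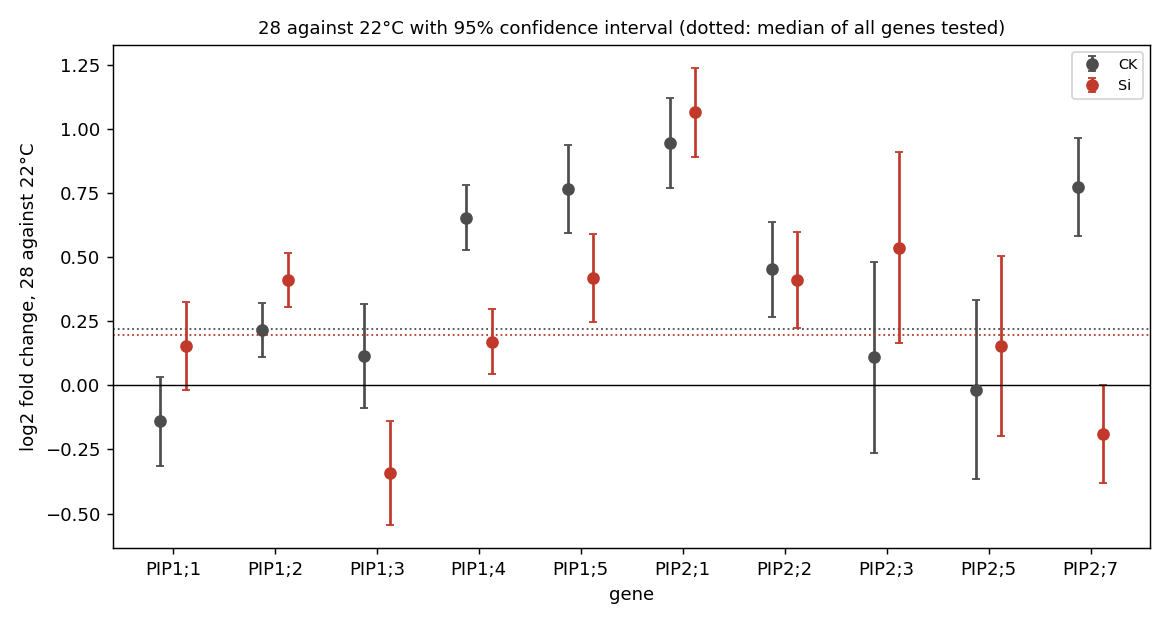
Log2 fold change of 28 against 22°C on the log2(TPM + 1) scale (y axis) for the 10 PIP genes (x axis) in CK (grey) and Si (red), with 95% confidence intervals from limma. Dotted lines mark the medians of all genes tested, 0.22 in CK and 0.19 in Si. PIP2;1 has the highest value in both treatments (0.94 and 1.06), and PIP2;7 lies at 0.77 in CK and -0.19 in Si, while values between 0 and the dotted lines turn negative under median-of-ratios scaling.

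PIP1;4, which transports hydrogen peroxide and whose transcript is known to rise in drought-treated leaves, was higher in Si at each temperature. At 22°C the CK samples held 60.0, 60.5, and 52.6 TPM and the Si samples 120.0, 111, and 106 TPM. At 25°C these values were 58.6, 57.55, and 59.3 TPM for CK and 129, 122, and 127 TPM for Si, and at 28°C they were 93.6, 89.3, and 90.5 TPM for CK and 120.2, 134, and 125 TPM for Si. All 9 Si samples thus lay above all 9 CK samples, and CK at 28°C stood between the other CK groups and Si. The log2 fold changes by limma were 0.95 ± 0.06 (SE, adjusted p = 1.5e-08), 1.09 ± 0.06 (adjusted p = 1.6e-09), and 0.47 ± 0.06 (adjusted p = 1.2e-05), or 94.5, 115, and 38.7% more TPM. The rise at 28°C was smaller than that at 22°C, with a difference of -0.48 ± 0.08 (interaction term, adjusted p = 0.0016). From 22 to 28°C this gene rose by 0.65 ± 0.06 in CK (adjusted p = 1.1e-06) and by 0.17 ± 0.06 in Si (adjusted p = 0.027, and -0.04 under median-of-ratios scaling), the latter lost when replicate 2 or 3 of Si was left out at either temperature (adjusted p between 0.053 and 0.12). From 22 to 25°C in Si it was at 0.17 and missed the threshold (adjusted p = 0.056), which it passed without replicate 2 or 3 of CK or replicate 1 of Si at 22°C (adjusted p = 0.049, 0.031, and 0.025). Under median-of-ratios scaling the rises with Si were 0.66, 0.80, and 0.22, and under quantile normalization the value at 25°C was 0.99, so it was a DEG at 25°C under neither of these.

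PIP1;3, another member of the PIP1 subfamily, was lower in Si at each temperature. At 22°C it stood at 317, 379, and 362 TPM in CK samples and at 234, 241, and 260.1 TPM in Si samples. The values at 25°C were 355, 375, and 353 TPM for CK and 183, 161, and 193 TPM for Si, and those at 28°C were 357, 371, and 417 TPM for CK and 167, 216, and 199 TPM for Si. No Si sample reached any CK sample, and the Si samples at 25 and 28°C lay below all those at 22°C. The log2 fold changes with Si were -0.52 ± 0.10 (adjusted p = 0.00028), -1.01 ± 0.10 (adjusted p = 3.4e-07), and -0.98 ± 0.10 (adjusted p = 8.4e-07), and the mean TPM changed by -30.5, -50.4, and -49.2%. The interaction terms were -0.49 ± 0.13 at 25°C (adjusted p = 0.033) and -0.46 ± 0.13 at 28°C (adjusted p = 0.029). With temperature the transcript fell in Si, by -0.45 ± 0.10 at 25°C (adjusted p = 0.0038) and -0.34 ± 0.10 at 28°C (adjusted p = 0.0078), while in CK it was at 0.04 and 0.12 and did not pass. The DEG call at 25°C was narrow, with log2 fold changes of -0.98 and -0.94 once replicate 2 of CK or of Si at 25°C was left out. The interaction at 25°C did not pass in fits lacking replicate 1 of CK or replicate 2 or 3 of Si at 22°C, any CK replicate at 25°C, or replicate 1 or 2 of Si at 25°C (adjusted p between 0.052 and 0.077). That at 28°C was lost in fits lacking replicate 1 of CK or replicate 3 of Si at 22°C, or replicate 3 of CK or replicate 1 of Si at 28°C (adjusted p between 0.063 and 0.072), and its adjusted p was 0.065 under median-of-ratios scaling.

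PIP1;1 (chr3:22733243-22735394, plus strand), close to PIP1;2 in coding sequence at 87.57% identity, also fell with Si at each temperature. The CK samples held 163, 201, and 194 TPM at 22°C and the Si samples 111, 97.2, and 113 TPM. At 25°C, values of 195, 208, and 171 TPM for CK stood against 97.7, 100.5, and 101 TPM for Si, and at 28°C 173, 164, and 167 TPM for CK against 123, 118, and 116 TPM for Si. Every Si value lay below every CK value, and the gap was narrowest at 28°C. The log2 fold changes of -0.79 ± 0.08, -0.93 ± 0.08, and -0.49 ± 0.08 had adjusted p of 1.4e-06, 1.6e-07, and 0.00012. The interaction at 28°C was 0.29 ± 0.11 with an adjusted p of 0.092, so a difference between the temperatures was not shown, although it passed without replicate 1 of CK at 22°C (0.39, adjusted p = 0.018). No comparison of temperatures passed on the deposited scale. For 28 against 22°C in CK the value was -0.14 there, -0.40 (adjusted p = 0.0044) after median-of-ratios scaling, and -0.23 (adjusted p = 0.021) without replicate 1 of CK at 22°C.

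PIP1;2 (chr2:18910081-18911982, plus strand), which conducts carbon dioxide as well as water and is one of the main PIPs of rosette leaves, was lower in Si at 22°C. There CK held 698, 711, and 687 TPM and Si 611, 584, and 564 TPM, with no overlap and a log2 fold change of -0.25 ± 0.05 (adjusted p = 0.00045). CK samples at 25°C were at 735, 761, and 672 TPM and Si samples at 657, 664, and 677 TPM, and at 28°C CK was at 807, 802, and 826 TPM and Si at 794, 808, and 738 TPM. Here the groups overlapped, with log2 fold changes of -0.12 (95% confidence interval -0.22 to -0.01, adjusted p = 0.053) and -0.06 (-0.16 to 0.05, adjusted p = 0.32), which turned to 0.00 and 0.09 under quantile normalization and passed at -0.41 and -0.30 under median-of-ratios scaling. Leaving out replicate 3 of CK at 25°C brought the value at 25°C to -0.17 (adjusted p = 0.0080), and leaving out replicate 3 of Si at 28°C brought its adjusted p to 0.045. The interaction at 28°C was 0.19 (adjusted p = 0.069). It passed under quantile normalization (0.27, adjusted p = 0.015) and without replicate 3 of CK at 25°C or of Si at 28°C (adjusted p = 0.041 in both). From 22 to 28°C the transcript rose by 0.22 ± 0.05 in CK (adjusted p = 0.0022, and -0.05 under median-of-ratios scaling) and by 0.41 ± 0.05 in Si (adjusted p = 1.1e-05). From 22 to 25°C it rose in Si by 0.18 ± 0.05 (adjusted p = 0.015), which was lost without replicate 3 of Si at 22°C (0.16, adjusted p = 0.063) and with median-of-ratios scaling (0.09).

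PIP1;5 (chr4:12220641-12222468, plus strand) rose between 22 and 28°C in both treatments. CK samples were at 185, 187, and 179.7 TPM at 22°C, then at 243, 232, and 197 TPM at 25°C, and reached 321, 312, and 306 TPM at 28°C. Si samples were at 242, 195, and 212 TPM at 22°C, then at 196, 211, and 201 TPM at 25°C, and reached 309.55, 290.6, and 266 TPM at 28°C. CK thus rose over both steps without overlap, Si rose only between 25 and 28°C, and the treatments were apart only at 22°C, where Si was higher. That difference had a log2 fold change of 0.23 ± 0.08 (adjusted p = 0.024), became -0.07 under median-of-ratios scaling, and did not pass without replicate 3 of CK or replicate 1 of Si at 22°C (adjusted p = 0.068 and 0.14). At 25 and 28°C it was -0.14 (95% confidence interval -0.31 to 0.03) and -0.12 (-0.29 to 0.05). Under median-of-ratios scaling both passed, at -0.43 and -0.36. The value at 25°C also passed under quantile normalization (-0.22, adjusted p = 0.040) and without replicate 3 of CK at 25°C (-0.23, adjusted p = 0.021). From 22 to 28°C the transcript rose by 0.77 ± 0.08 in CK (adjusted p = 4.0e-06) and by 0.42 ± 0.08 in Si (adjusted p = 0.00062, and 0.21, adjusted p = 0.085, with median-of-ratios scaling), and the interaction of -0.35 ± 0.11 had an adjusted p of 0.049. This interaction was lost in 14 of 18 fits that left out 1 sample (adjusted p between 0.056 and 0.12), the exceptions being those without replicate 1 or 3 of CK at 25°C, replicate 2 of Si at 22°C, or replicate 1 of Si at 28°C, and under median-of-ratios scaling (adjusted p = 0.14). At 25°C the interaction was -0.37 with an adjusted p of 0.055, which was 0.020 without replicate 3 of CK at 25°C and 0.033 without replicate 2 of Si at 22°C. The rise from 22 to 25°C in CK (0.28 ± 0.08, adjusted p = 0.039) was lost without any single CK replicate at 22°C, replicate 1 or 2 of CK at 25°C, replicate 2 of CK or of Si at 28°C, or replicate 3 of Si at 25°C (adjusted p between 0.050 and 0.15), and with median-of-ratios scaling (0.18).

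PIP2;1 (chr3:19803473-19805730, minus strand) conducts water and hydrogen peroxide and takes part in stomatal closure as a target of the kinase OST1. It fell with Si and rose with temperature in both treatments. CK samples were at 359, 379.9, and 343 TPM at 22°C, then at 505, 481, and 417 TPM at 25°C, and reached 759, 657, and 672 TPM at 28°C. Si samples were at 257, 275.5, and 225 TPM at 22°C, then at 315, 311, and 336 TPM at 25°C, and reached 536, 539, and 508 TPM at 28°C. Treatments did not overlap at any temperature, and temperatures did not overlap in either treatment. The fall with Si was -0.52 ± 0.08, -0.54 ± 0.08, and -0.40 ± 0.08 on the log2 scale (adjusted p = 7.4e-05, 3.9e-05, and 0.00078). The interaction terms were -0.02 at 25°C, with a 95% confidence interval of -0.27 to 0.22, and 0.12 at 28°C, with an interval of -0.13 to 0.37, and neither passed (adjusted p = 0.93 and 0.52). From 22 to 28°C it rose in CK by 0.94 ± 0.08 (adjusted p = 7.4e-07) and in Si by 1.06 ± 0.08 (adjusted p = 2.0e-07). In Si this made it a DEG, which it was no longer without replicate 3 of Si at 22°C (0.98) or with median-of-ratios scaling (0.86). At 25°C it rose by 0.37 ± 0.08 in CK and 0.35 ± 0.08 in Si (adjusted p = 0.012 and 0.0073), of which the first had an adjusted p of 0.055 without replicate 1 of CK at 25°C and neither passed with median-of-ratios scaling (0.27 and 0.26).

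PIP2;7 (chr4:16708361-16710407, plus strand), a water channel whose level at the membrane is known to depend on the trafficking proteins SYP61 and SYP121, had the largest interaction terms of the 10 members. CK samples were at 338, 367, and 358 TPM at 22°C, then at 453, 494, and 423 TPM at 25°C, and reached 587, 609, and 621 TPM at 28°C. Si samples were at 377, 374, and 461 TPM at 22°C, then at 340.5, 292, and 356 TPM at 25°C, and at 323, 376, and 360.4 TPM at 28°C. The CK groups stood in rising order with no overlap, whereas the Si groups at 25 and 28°C overlapped with each other and with CK at 22°C. The log2 fold change of Si against CK was 0.18 ± 0.09 at 22°C (adjusted p = 0.092, with -0.11 under median-of-ratios scaling), -0.47 ± 0.09 at 25°C (adjusted p = 0.00031), and -0.78 ± 0.09 at 28°C (adjusted p = 4.5e-06). Under quantile normalization the value at 22°C passed, at 0.21 (adjusted p = 0.038). Relative to 22°C, the effect of Si differed by -0.66 ± 0.13 at 25°C (adjusted p = 0.0063) and by -0.96 ± 0.13 at 28°C (adjusted p = 0.00025). Leaving out any 1 of the 18 samples kept both interactions, which ranged from -0.71 to -0.56 and from -1.01 to -0.86. From 22 to 28°C the transcript rose by 0.77 ± 0.09 in CK (adjusted p = 9.4e-06), and in Si it was at -0.19 ± 0.09 (adjusted p = 0.094, and -0.40, adjusted p = 0.0046, under median-of-ratios scaling). From 22 to 25°C it rose by 0.36 ± 0.09 in CK (adjusted p = 0.020) and was at -0.29 ± 0.09 in Si (adjusted p = 0.029). The first was lost without replicate 1 or 2 of CK at 25°C (adjusted p = 0.055 and 0.073) and with median-of-ratios scaling, and the second without replicate 3 of Si at 22°C or replicate 2 of Si at 25°C (adjusted p = 0.14 and 0.13).

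PIP2;3, first described as a gene induced by desiccation, was lower in Si. At 22°C the CK samples held 20.4, 32.1, and 29.1 TPM and the Si samples 11.5, 16.3, and 14.6 TPM. Values of 26.8, 24.4, and 28.3 TPM for CK stood against 12.9, 11.6, and 15.8 TPM for Si at 25°C, and 23.5, 28.9, and 35.5 TPM against 18.95, 20.2, and 23.4 TPM at 28°C. At 22 and 25°C the groups were well apart, and at 28°C the highest Si sample came just under the lowest CK sample. The log2 fold changes were -0.88 ± 0.17, -0.94 ± 0.17, and -0.46 ± 0.17 (adjusted p = 0.00052, 0.00026, and 0.037). The value at 28°C no longer passed without replicate 2 or 3 of CK or replicate 1 or 2 of Si at 28°C (adjusted p = 0.074, 0.17, 0.11, and 0.086). In Si the transcript rose by 0.54 ± 0.17 from 22 to 28°C (adjusted p = 0.019), which was lost without replicate 1 of Si at 22°C or replicate 3 of Si at 28°C (adjusted p = 0.091 and 0.076), with median-of-ratios scaling, and with quantile normalization (0.34 in both).

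PIP2;2, whose loss is known to lower the water permeability of root cells, was also lower in Si. At 22°C, CK held 82.8, 105, and 93.2 TPM and Si 72.9, 79.0, and 86.7 TPM, and at 25°C CK held 126, 122, and 122 TPM and Si 79.6, 82.9, and 81.7 TPM. At 28°C, CK held 119, 129, and 136 TPM and Si 119, 102, and 97.6 TPM. The groups were far apart at 25°C and overlapped at 22 and 28°C. The log2 fold changes were -0.23, -0.60, and -0.27 (SE 0.09, adjusted p = 0.034, 2.9e-05, and 0.016). The call at 22°C was lost without replicate 2 or 3 of CK or replicate 1 or 2 of Si at 22°C (adjusted p = 0.18, 0.068, 0.14, and 0.071), and that at 28°C without replicate 3 of CK or replicate 2 or 3 of Si at 28°C (adjusted p = 0.064, 0.057, and 0.078). The interaction at 25°C was -0.36 (adjusted p = 0.075). It passed without replicate 2 of CK (adjusted p = 0.037) or replicate 1 of Si (adjusted p = 0.047) at 22°C. With temperature the transcript rose in CK by 0.40 at 25°C and 0.45 at 28°C (SE 0.09, adjusted p = 0.011 and 0.00067) and in Si by 0.41 at 28°C (adjusted p = 0.0013), and none of these passed with median-of-ratios scaling (0.30, 0.19, and 0.20). Summed with its neighbour PIP2;3 before the fit, the pair fell with Si by 0.36, 0.66, and 0.30 on the log2 scale (SE 0.09, adjusted p = 0.0041, 2.2e-05, and 0.012). Relative to 22°C, the summed pair was at 0.32 (25°C) and 0.38 (28°C) in CK (adjusted p = 0.041 and 0.0035). In Si it was at 0.02 and 0.44 (adjusted p = 0.90 and 0.0014). Its interaction terms were -0.30 at 25°C and 0.05 at 28°C (adjusted p = 0.17 and 0.82). The sum was fitted on the deposited scale only.

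PIP2;5 (chr3:20301759-20304309, plus strand), like PIP1;4 known for a transcript that rises in drought, was the least abundant member. At 22°C its CK samples held 2.52, 4.92, and 2.44 TPM and its Si samples 4.21, 3.64, and 3.66 TPM. At 25°C, CK was at 2.14, 1.94, and 2.83 TPM and Si at 4.14, 4.66, and 4.57 TPM, and at 28°C CK was at 3.00, 3.04, and 3.28 TPM and Si at 4.17, 4.58, and 4.37 TPM. Si lay above CK without overlap at 25 and 28°C, and at 22°C replicate 2 of CK lay above all Si samples. The rise at 25°C, 0.73 ± 0.16 (adjusted p = 0.0012), was the only one to pass, and it was 0.51 under median-of-ratios scaling and 0.28 (adjusted p = 0.16) under quantile normalization. At 22°C the log2 fold change was 0.22 (adjusted p = 0.27, and -0.01 under median-of-ratios scaling), and without replicate 2 of CK it was 0.47 (adjusted p = 0.0028). At 28°C it was 0.39 (adjusted p = 0.057), and -0.03 under quantile normalization, and it passed without any single CK replicate at 22°C (adjusted p = 0.048, 0.0045, and 0.044), which enter only through the shared spread. No comparison of temperatures passed for this gene.

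The 5 PIP1 and the 5 PIP2 members took different shares of their common sum as temperature changed. PIP2;4, PIP2;6, and PIP2;8 are not in these sums, of which PIP2;6 had group means of 118 TPM (CK at 22°C) to 195 TPM (CK at 28°C). In CK, the summed TPM of the 5 PIP1 genes was 1479 ± 58.3, 1557 ± 94.1, and 1766 ± 35.7 at 22, 25, and 28°C, and that of the 5 PIP2 genes 839 ± 44.6, 1077 ± 71.9, and 1462 ± 32.3 (mean ± SD, n = 3). The ratio of PIP1 to PIP2 in CK was thereby 1.76 ± 0.03, 1.45 ± 0.02, and 1.21 ± 0.03, with no overlap between the temperatures. In Si, the ratio was 1.68 ± 0.12, 1.70 ± 0.08, and 1.49 ± 0.03, so that Si samples overlapped with CK at 22°C and lay above CK at 25 and 28°C. A ratio within a sample does not depend on the median-of-ratios factor of that sample. Within the members, PIP2;1 went from 15.6 to 21.6% of the total of the 10 members between 22 and 28°C in CK and from 12.5 to 20.9% in Si, while PIP2;7 went from 15.3 to 18.8% in CK and from 20.0 to 14.0% in Si. PIP1;4 held 2.23 to 2.82% of the total in the CK groups and 5.01 to 6.23% in the Si groups.

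**Figure D4:**
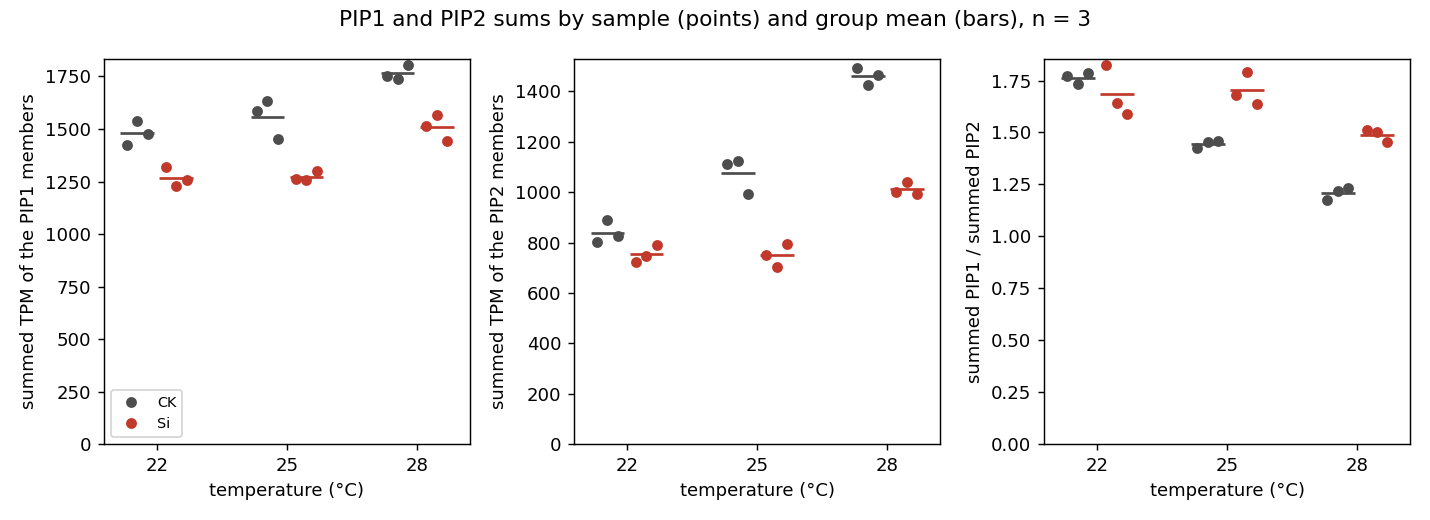
Summed TPM of the 5 PIP1 genes (left), of the 5 PIP2 genes (middle), and the ratio of the 2 sums (right) on the y axes, by temperature in °C (x axis), with CK in grey, Si in red, and bars at the mean of 3 replicates. The CK ratio goes from 1.76 at 22°C to 1.21 at 28°C, and the Si ratio lies at 1.68, 1.70, and 1.49.

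The 250 bases upstream of the annotated transcript start were searched on both strands in all 10 members for letters bound by temperature, light, clock, or stress factors. The promoters of PIP1;3 (chr1:227544-227793, minus strand) and PIP1;4 (chr4:187681-187930, minus strand) are printed because these genes moved in opposite directions with Si. Capitals mark TATAAA, letters known from core promoters, which in PIP1;4 lie at position -234 from the annotated transcript start. Whether they act as a core element there was not tested:
PIP1;3: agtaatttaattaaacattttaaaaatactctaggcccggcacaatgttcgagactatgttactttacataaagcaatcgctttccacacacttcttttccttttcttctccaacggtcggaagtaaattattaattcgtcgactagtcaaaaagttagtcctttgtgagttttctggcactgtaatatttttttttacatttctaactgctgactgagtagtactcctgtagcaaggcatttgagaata
PIP1;4: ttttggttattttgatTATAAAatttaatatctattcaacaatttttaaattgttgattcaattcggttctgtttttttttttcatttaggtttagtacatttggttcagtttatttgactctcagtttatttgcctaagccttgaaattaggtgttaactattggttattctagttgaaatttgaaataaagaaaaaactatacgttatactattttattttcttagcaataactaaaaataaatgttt
Of the 10 PIP promoters, none held the G-box CACGTG, which 6.49% of 27443 promoters of the same length held, none held ACGTG (22.9%), which CACGTG contains, none held the evening element AAATATCT (4.79%), and none held the GCC-box GCCGCC (1.87%). CACATG occurred in PIP1;2 and PIP2;5 (11.1% of all promoters), and TATAAA in 5 of the 10 (47.3%), at positions between -246 and -156. A match is a description of the letters and not of a bound site.

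Proteins that phosphorylate or move PIPs were followed as a list of 9 genes, of which 8 passed the filter on low values and TSPO did not. By adjusted p, 6 rose and 1 fell with Si at 22°C, 5 rose and 2 fell at 25°C, and 4 rose and 2 fell at 28°C, beside 47.4, 47.8, and 43.5% of all genes that rose and 10.7, 13.5, and 11.9% that fell. After median-of-ratios scaling 4 rose and 2 fell, 1 rose and 3 fell, and 1 rose and 3 fell, beside 24.6, 28.1, and 23.5% of all genes that rose and 25.4, 27.4, and 24.0% that fell. SYP121, a syntaxin that delivers PIPs to the plasma membrane, went from 23.9 to 63.1 TPM at 22°C, from 23.0 to 31.9 TPM at 25°C, and from 20.2 to 42.9 TPM at 28°C. On the deposited scale its log2 fold changes by limma were 1.36, 0.46, and 1.06 (adjusted p = 1.0e-06, 0.0088, and 1.3e-05). At 25°C only 1 gene of the list still rose after median-of-ratios scaling. RMA1, a ubiquitin ligase that acts on PIP2;1, went from 127 to 83.7 TPM at 22°C (-0.58 ± 0.35, adjusted p = 0.17), from 124 to 47.8 TPM at 25°C (-1.47 ± 0.35, adjusted p = 0.0020) and from 104 to 56.4 TPM at 28°C (-0.92 ± 0.35, adjusted p = 0.038).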

How the data were processed

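The authors deposited TPM values of 33039 genes for 18 samples, made from trimmed paired-end reads mapped to TAIR10; the labels name HISAT2 and StringTie, and the methods of the study name RSEM. Reads per sample are not known from TPM. The gene lengths in the deposited table equal an annotated TAIR10.1 transcript for all 10 members.

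Genes reaching 1 TPM in 3 or more samples were kept, and log2(TPM + 1) was fitted with limma 3.58.1 in R 4.3.3 as 6 group means over 18 samples (eBayes with trend, 12 residual degrees of freedom, two-sided). Benjamini-Hochberg adjustment covered 20044 genes. DEGs had an absolute log2 fold change above 1 besides an adjusted p no higher than 0.05, and interactions needed the adjusted p only. A count test was not possible on TPM. Coding sequences were aligned with Biopython 1.88.

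Alternatives were pseudocounts of 0.1 and 0.5, no filter, a filter at 5 TPM, the replicate number as a block, quantile normalization, median-of-ratios scaling, a fit of only the groups compared, each sample left out, and PIP2;2 and PIP2;3 summed. The members and the lists (other PIP, TIP, NIP, SIP, PIP kinases and trafficking, and markers of leaf, root, vasculature, and guard cells) were chosen with earlier results of these data known. Named genes were all 10 members, up to 4 DEGs and the most abundant gene of each other list, and the 5 genes most like the mean of the members.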

Additional observations from a re-analysis of the deposited data

Results flagged for a closer look

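For 4 PIP members, the effect of Si at 25 or 28°C differed from that at 22°C by the interaction term of limma, with Benjamini-Hochberg adjustment over all genes. Of all genes tested, 4.37% were called higher and 5.36% lower at 25°C, and 6.92% higher and 10.2% lower at 28°C. After median-of-ratios scaling 2 members were lower at 28°C, beside 8.33% of all genes. PIP2;7 differed at 25°C by -0.66 (adjusted p = 0.0063) and at 28°C by -0.96 (adjusted p = 0.00025), and it passed in all 18 fits that left out 1 sample. Its value at 22°C itself, 0.18, did not pass (adjusted p = 0.092) and was -0.11 under median-of-ratios scaling. PIP1;3 differed by -0.49 at 25°C (adjusted p = 0.033) and by -0.46 at 28°C (adjusted p = 0.029), with a deeper fall in Si at both, but was lost in 8 and 4 of the 18 fits, and at 28°C under median-of-ratios scaling (adjusted p = 0.065). PIP1;4 differed by -0.48 at 28°C (adjusted p = 0.0016), where its rise in Si was smaller. PIP1;5 differed by -0.35 at 28°C (adjusted p = 0.049), which was lost in 14 of the 18 fits and under median-of-ratios scaling (adjusted p = 0.14). The terms at 25 and 28°C share the samples at 22°C.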

How the results depend on the processing

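Among 90 member results (10 PIP genes in 9 comparisons), a pseudocount of 0.1 changed the call of 1, a pseudocount of 0.5 of 0, no filter on low values of 3, and the filter at 5 TPM of 2 of the 81 it left. Median-of-ratios scaling changed the number of PIP members called from 0 to 2 for Si against CK at 22°C, from 2 (1 higher, 1 lower) to 3 (all lower) at 25°C, from 0 to 2 at 28°C, from 4 to 2 for the interaction at 28°C, and from 1 to 0 for 28 against 22°C in Si, and quantile normalization gave 1, 3 (all lower), and 1 for Si against CK at 22, 25, and 28°C. A fit of only the groups compared left 2 for the interaction at 28°C. With the adjusted p alone, 8, 8, and 7 members were called for Si against CK at 22, 25, and 28°C, 4 and 6 for 25 and 28 against 22°C in CK, and 4 and 7 in Si. At this threshold, 47.4, 47.8, and 43.5% of all genes rose with Si and 10.7, 13.5, and 11.9% fell. With temperature, 8.74 and 41.2% of all genes rose and 2.40 and 7.81% fell in CK. In Si, 16.6 and 39.0% rose and 7.06 and 10.5% fell. Same-numbered replicates were at most weakly alike, with correlations of their deviations between -0.067 and 0.162. The highest correlation with another number lay between -0.081 and 0.098. For Si against CK at 22°C the same number was higher in each replicate (0.088, 0.076, and 0.017 against 0.003, -0.019, and 0.003). So it was for 25 against 22°C in CK (0.098, 0.048, and 0.03276 against -0.018, -0.015, and 0.03276), though barely in replicate 3. The replicate block only added PIP1;2 for Si against CK at 25°C (-0.12, adjusted p = 0.043) and the PIP1;5 interaction at 25°C (-0.37, adjusted p = 0.029). The causes were not tested.

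Median-of-ratios scaling turned the direction of PIP1;5 (-0.067), PIP2;5 (-0.014), and PIP2;7 (-0.113) for Si against CK at 22°C, of the PIP2;2 interaction at 28°C (0.014), of PIP1;1 (-0.056), PIP1;2 (-0.052), PIP1;3 (-0.060), and PIP1;4 (-0.075) for 25 against 22°C in CK, of PIP1;2 (-0.047), PIP1;3 (-0.147), and PIP2;3 (-0.146) for 28 against 22°C in CK, of PIP2;2 (-0.055) for 25 against 22°C in Si, and of PIP1;1 (-0.054), PIP1;4 (-0.038), and PIP2;5 (-0.015) for 28 against 22°C in Si. Quantile normalization turned PIP2;5 (-0.209, -0.034) for Si against CK at 22 and 28°C, PIP1;2 (0.0040, 0.088) at 25 and 28°C, the interactions of PIP2;1 at 25°C (0.0036) and PIP2;2 at 28°C (0.0030), PIP1;4 (-0.033) and PIP2;3 (-0.075) for 25 and 28 against 22°C in CK, and PIP2;5 (-0.203) for 28 against 22°C in Si.

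Over the 18 fits that each lacked 1 sample, the number of PIP members called ranged from 0 to 1, 1 to 3, and 0 to 1 for Si against CK at 22, 25, and 28°C, from 1 to 3 and 2 to 5 for the interactions at 25 and 28°C, and from 0 to 1 for 28 against 22°C in Si. Directions that turned had ranges of -0.19 to 0.13 (PIP2;3) and -0.104 to 0.043 (PIP2;1) for the interaction at 25°C, -0.126 to 0.045 (PIP2;2) and -0.085 to 0.306 (PIP2;5) at 28°C, -0.050 to 0.12 (PIP1;1), -0.038 to 0.092 (PIP1;3), -0.200 to 0.114 (PIP2;3), and -0.042 to 0.056 (PIP1;4) for 25 against 22°C in CK, -0.078 to 0.253 (PIP2;3) and -0.153 to 0.238 (PIP2;5) for 28 against 22°C in CK, and -0.024 to 0.099 (PIP2;2) and -0.199 to 0.037 (PIP2;3) for 25 against 22°C in Si. None of these had passed the test.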

Other observations

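The remaining aquaporins of the shoot moved in both directions with Si, and the counts below stand beside 47.4, 47.8, and 43.5% of all genes that rose and 10.7, 13.5, and 11.9% that fell at 22, 25, and 28°C (24.6, 28.1, and 23.5% and 25.4, 27.4, and 24.0% after median-of-ratios scaling). Of 3 further PIP genes, PIP2;6 was the most abundant (CK 118 and Si 127 TPM at 22°C) and did not pass the test in Si against CK on the deposited scale. After median-of-ratios scaling PIP2;6 fell at 22, 25, and 28°C (log2 fold changes -0.19, -0.32, and -0.37, adjusted p = 0.025, 0.00068, and 0.00021 by limma). PIP2;8, which shared 84.71% of aligned coding positions with PIP2;7, rose from 6.14 to 9.61, from 4.30 to 11.3, and from 5.24 to 10.9 TPM at 22, 25, and 28°C (log2 fold changes 0.59, 1.22, and 0.91, adjusted p = 0.017, 6.7e-05, and 0.0011 by limma), while PIP2;7 fell at 25 and 28°C. Under median-of-ratios scaling the value of PIP2;8 at 22°C had an adjusted p of 0.15.

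Of 10 tonoplast aquaporins (TIPs), 5 passed the filter on low values, and with Si 1 rose and 3 fell at each temperature (1 rose and 4, 3, and 3 fell after median-of-ratios scaling). TIP1;2, the most abundant TIP, went from 2259 to 1101, from 2731 to 1193, and from 2884 to 1466 TPM (log2 fold changes -1.03, -1.19, and -0.98), and TIP1;1 went from 89.8 to 235, from 144 to 359.5, and from 278 to 502 TPM (1.38, 1.31, and 0.85). TIP3;2, known from seeds, was low in CK (1.56, 3.10, and 1.63 TPM) and lower in Si (0.06, 0.04, and 0.21 TPM). Of 9 NIPs (nodulin 26-like intrinsic proteins), 5 passed the filter and 3 rose at each temperature (2, 3, and 3 after median-of-ratios scaling), among them the boric acid channel NIP5;1 (4.09 to 9.76, 6.26 to 14.4, and 13.2 to 24.2 TPM) and NIP1;1 (0.58 to 3.31, 0.80 to 5.09, and 1.59 to 5.61 TPM). NIP1;2 was the most abundant NIP at 22°C, with 12.3 TPM in CK and 13.1 TPM in Si. In Si at 28°C, NIP5;1 lay above NIP1;2 (15.2 TPM). All 3 small basic intrinsic proteins rose at each temperature on the deposited scale, with log2 fold changes of 0.22, 0.43, and 0.23 for the most abundant, SIP1;1. After median-of-ratios scaling, 0, 1, and 2 of the 3 still rose and SIP1;1 stood at -0.08, 0.15, and -0.01. The 6 vasculature markers held 364 to 564 TPM per sample, and with Si 3 rose and 1 fell at each temperature (1, 2, and 2 rose and 1 fell after median-of-ratios scaling).

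The 5 genes whose log2(TPM + 1) over the 18 samples was most like the mean standardized value of the 10 PIP members were AT1G51200 (Pearson r = 0.943), AT5G27400 (0.941), CIP8 (AT5G64920, 0.941), AT1G25230 (0.940), and AT2G42040 (0.938). Only the 11568 other genes that passed the filter on low values and had a mean of at least 10 TPM were compared. AT1G51200 went from 377 to 585 TPM between CK at 22 and 28°C and from 309 to 449 TPM in Si. The 18 points come from 6 groups, and r is a description.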
